A study of Mus musculus with 14 samples.

Results

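Immunoglobulin (Ig) gene segments are the pieces from which B cells assemble antibody genes, and 50 of the 54532 genes in the deposited count table are described here. They are the Ig segments, pseudogenes left out, that had at least 10 read counts summed over the 14 libraries. They comprise 12 of the 13 constant-region genes in the table, 36 of the 218 variable (V) segments and 2 of the 14 joining (J) segments. None of the 19 diversity (D) segments or of the 4 segments with the LV biotype had a count. Members were chosen by their summed counts over the same libraries, so their totals are a description and are not tested. Igkv2-109 and Ighj1, with 10 counts each, were the lowest members, and Igkv4-58 and Igkv4-57-1, with 9 each, were the highest segments left out. A further 85 segments had 1 to 9 counts, and the members held 98.0% of all counts in Ig segments.

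Each library held RNA of a 4T1 tumour. The 4T1 line is a mouse breast carcinoma, labelled triple-negative, of which 1000000 cells were placed under the skin at the mammary gland. From day 9, with tumours near 100 mm3, mice were injected into the peritoneum every 6 days with PBS (4 libraries, PBS 1 to 4) or with CTX at 100 mg/kg (5 libraries, CTX100 1 to 5) or 140 mg/kg (5 libraries, CTX140 1 to 5). CTX is the usual abbreviation of cyclophosphamide, an alkylating cytotoxic drug to which lymphocytes are sensitive. Tumours were taken on day 3 after cycle 3, and all 3 groups carried the same cell line. The labels used here give no strain, sex or age of the mice and do not state that each library is a separate animal, and a p-value then speaks only of the spread between libraries. RNA came from whole tumour tissue. The epithelial keratin genes Krt8 (692 to 1201 CPM) and Krt18 (456 to 995) were high in every library, whereas Epcam, another epithelial marker, ranged from 0.546 to 61.9. CPM are counts per 1000000 counts of the library. For single genes, gene lists and correlations the library total was first scaled by a normalisation factor (TMM). Outside the correlations the summed Ig members were given without this scaling.

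An antibody pairs a heavy chain with a kappa or lambda light chain. A developing B cell joins 1 V segment, in the heavy chain also a D segment, to a J segment, so that each B cell clone makes its own chain, and transcripts then join this unit to a constant region. Naive B cells carry IgM and IgD (constant genes Ighm and Ighd) on their surface. Class switching replaces them by an IgG, IgE or IgA constant region (Ighg1, Ighg2b, Ighg2c and Ighg3, Ighe, Igha). Plasma cells secrete large amounts of antibody, and the J chain (Jchain, no relation of the J segments) links IgM and IgA into polymers. In bulk tumour RNA, fewer cells of a type and less RNA per cell cannot be told apart.

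Many segments are near copies of each other, which limits how reads can be assigned to them. The lambda constant genes are shown because Iglc2 and Iglc3 shared 96.5% of aligned coding bases, with a longest identical run of 79 bases, whereas Iglc1 and Iglc2 shared 74.8%. Coding bases 2 to 151 of each are printed 5′ to 3′ from the GENCODE M21 transcripts (build GRCm38, the same as mm10), with capitals at positions where the 3 are not identical. They lie on the minus strand at chr16:19198396-19200351, chr16:19065230-19065681 and chr16:19061618-19062071.
Iglc2: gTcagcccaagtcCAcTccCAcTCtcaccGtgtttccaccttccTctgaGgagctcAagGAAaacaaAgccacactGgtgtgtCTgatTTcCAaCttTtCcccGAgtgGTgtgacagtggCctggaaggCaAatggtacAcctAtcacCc
Iglc3: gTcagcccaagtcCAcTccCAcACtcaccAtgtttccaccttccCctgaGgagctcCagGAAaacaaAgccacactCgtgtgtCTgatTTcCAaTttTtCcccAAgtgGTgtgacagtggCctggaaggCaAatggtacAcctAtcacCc
Iglc1: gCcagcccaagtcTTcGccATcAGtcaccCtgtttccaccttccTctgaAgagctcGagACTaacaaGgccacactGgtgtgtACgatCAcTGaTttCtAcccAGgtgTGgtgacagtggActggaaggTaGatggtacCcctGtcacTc

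The V segments show the same in coding bases 61 to 210, with capitals where a pair differs. Iglv1 (chr16:19085017-19085500) and Iglv2 (chr16:19260401-19260859), both on the minus strand, shared 96.9% of coding bases. Igkv10-96 (chr6:68631963-68632442) and Igkv10-94 (chr6:68704508-68704978), also on the minus strand, shared 95.4%.
Iglv1: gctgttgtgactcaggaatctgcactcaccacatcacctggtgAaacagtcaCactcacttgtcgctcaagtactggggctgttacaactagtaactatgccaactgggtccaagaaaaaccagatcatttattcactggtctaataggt
Iglv2: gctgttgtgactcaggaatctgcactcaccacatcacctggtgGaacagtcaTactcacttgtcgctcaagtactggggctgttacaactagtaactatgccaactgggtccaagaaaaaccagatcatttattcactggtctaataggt
Igkv10-96: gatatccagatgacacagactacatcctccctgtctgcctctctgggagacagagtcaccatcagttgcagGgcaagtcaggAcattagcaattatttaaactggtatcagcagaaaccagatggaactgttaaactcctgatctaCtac
Igkv10-94: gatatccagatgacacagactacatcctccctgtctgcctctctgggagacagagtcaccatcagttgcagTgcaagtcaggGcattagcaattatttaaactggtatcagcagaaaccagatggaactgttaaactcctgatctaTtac
The median identity of the 36 V members to their nearest V segment in the annotation was 95.5%, and for 30 of them it was at least 90%. Values of single V segments and of Iglc2 and Iglc3 are therefore uncertain, since no source used here says how reads that fit several copies were treated. The only heavy-chain V members, Ighv14-2 (chr12:113994469-113994898, minus strand) and Ighv11-2 (chr12:114048241-114048812, minus strand), are shown in the same coding window. They shared 64.1% of aligned coding bases with each other.
Ighv14-2: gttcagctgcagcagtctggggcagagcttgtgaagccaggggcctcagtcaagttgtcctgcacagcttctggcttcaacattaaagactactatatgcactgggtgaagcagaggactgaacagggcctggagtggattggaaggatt
Ighv11-2: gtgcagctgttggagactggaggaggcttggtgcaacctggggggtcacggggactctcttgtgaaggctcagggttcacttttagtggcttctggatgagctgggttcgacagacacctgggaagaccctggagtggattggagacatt

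Ig counts differed more between libraries of a group than between groups. The 50 members together held 4850, 345, 234 and 287 counts in PBS 1 to 4. They held 160, 146, 752, 85 and 238 counts in CTX100 1 to 5, and 6270, 865, 665, 39 and 669 in CTX140 1 to 5. PBS 1 and CTX140 1 stood far above the rest of their groups, CTX100 3 stood above the rest of its group, and the 3 groups overlapped. Library totals lay between 14423875 and 19282726 counts, so depth differed little beside this.

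Scaled to CPM, PBS 1 reached 306 (95% Wilson interval 297 to 315) and CTX140 1 reached 379 (370 to 388), while CTX140 4 was lowest at 2.70 (1.98 to 3.70), a 140-fold range. The intervals cover counting error only, since reads are not independent molecules. Group means were 90.1 ± 144 CPM in PBS (SD, n = 4), 15.5 ± 13.5 in CTX100 (SD, n = 5) and 101 ± 156 in CTX140 (SD, n = 5). Group medians were 19.6, 10.1 and 40.6 CPM. PBS 1 and CTX140 1 together held 71.3% of all member counts. Without them the mean was 18.2 ± 3.71 in PBS (SD, n = 3) and 31.9 ± 20.2 in CTX140 (SD, n = 4). CTX140 4, at 2.70 CPM, remained below every PBS library, while CTX140 2, 3 and 5, at 48.5, 40.6 and 35.5, were above PBS 2 to 4, at 22.4, 15.4 and 16.8. CTX100 without CTX100 3 had a mean of 9.61 ± 3.54 (SD, n = 4), and these 4 libraries, at 5.32 to 13.9 CPM, all lay below PBS 2 to 4.

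**Figure D1:**
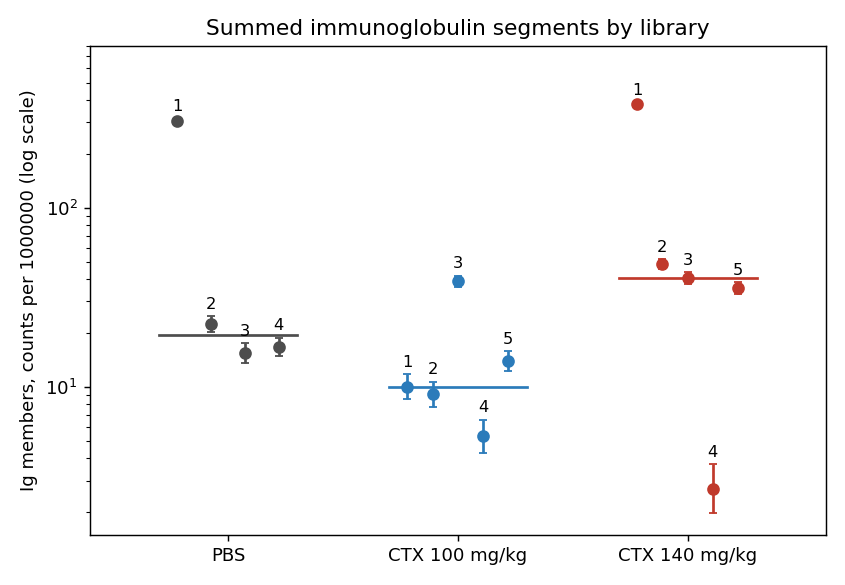
Summed counts of the 50 Ig members in CPM in each of the 14 libraries on a log axis, by group, with 95% Wilson intervals. PBS 1 (306) and CTX140 1 (379) stand above the other 12 libraries, which lie between 2.70 and 48.5.

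The same libraries carried genes of B cells and some genes of lymphoid tissue. The 16 genes of a B cell marker list summed to 142 CPM in PBS 1, 221 in CTX140 1 and 41.9 in CTX100 3, and to 4.56 to 25.01 in the other 11 libraries. No gene of the list was at 0 in those 3 libraries. Ms4a1, which encodes CD20, had 237, 325 and 73 counts in PBS 1, CTX140 1 and CTX100 3 and at most 3 elsewhere. Cr2, a complement receptor of mature B cells, had 148, 247 and 50 counts there and at most 5 elsewhere. Glycam1, a ligand made by the high endothelial venules of lymph nodes and by the lactating mammary gland, had 1784, 6751 and 399 counts there and at most 34 elsewhere. Ccl21a, a chemokine that draws lymphocytes into lymphoid tissue, had 54, 119 and 29 counts there and at most 13 elsewhere. The lymphoid tissue list as a whole summed to 150 CPM in PBS 1, 641 in CTX140 1 and 50.7 in CTX100 3. It summed to 12.9 to 70.3 in the other 11 libraries, so CTX100 3 did not stand apart by this sum. The part of all these genes in the Ig differences was not tested. Genes named here and not among the most abundant of their list were chosen after their values were seen. The T cell list (8 genes) was high in CTX140 1, at 644 CPM, with PBS 1 at 105, CTX100 3 at 54.3 and the other 11 libraries at 41.6 to 197.

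Only 6 of the 50 members passed the filter on low counts and entered the fit across 15360 genes (edgeR's quasi-likelihood test with Benjamini-Hochberg adjustment), namely Ighm, Igkc, Igha, Ighd, Ighg1 and Iglc3. None was called at an adjusted p under 0.05 in CTX100 against PBS, where 1.60% of all tested genes were called. None was called in CTX140 against PBS (21.3% of all tested genes) or in CTX140 against CTX100 (1.25%). At an unadjusted p under 0.05 the counts were 2, 1 and 3 of the 6, where 17.9%, 35.7% and 22.3% of all tested genes passed. DESeq2 called 0, 0 and 1 of the 6, and 5.46%, 26.0% and 8.14% of all genes. Median log2 fold changes of the 6 members were -2.07, 0.51 and 2.35 in these comparisons, against -0.01, 0.02 and 0.03 over all tested genes. Both the PBS and the CTX140 side of these medians contain a library that stands apart. After PBS 1 and CTX140 1 were left out, 4 members could be tested and none was called, where 3.23%, 19.2% and 0.376% of all tested genes were called. In a fit without the filter on low counts all 50 members could be tested and none was called, the lowest adjusted p being 0.149, 0.242 and 0.104 (edgeR), where 0.755%, 9.05% and 0.804% of 30859 genes were called. Unadjusted, 17 members were lower in CTX100 than in PBS at a p under 0.05 (5.37% of all genes) and 18 were higher in CTX140 than in CTX100 (10.1% of all genes). Of the 36 V members, 29 had most of their counts in PBS 1 and CTX140 1. For those members these libraries weighed most in meeting the 10-count rule. The rule itself thus favours these directions, and the 17 and 18 are not read against the shares of all genes. In CTX140 against PBS 0 members passed (22.2% of all genes, either direction). With PBS 1 and CTX140 1 also left out of that fit, 47 members could be tested, and 1 was lower and 1 higher in CTX100 against PBS, while 5 and 7 were higher in CTX140 against PBS and against CTX100. None of them was called after adjustment. The shares of all genes there were 6.14% lower and 6.24% higher, and 11.2% and 7.71% higher.

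Ighm, the IgM constant gene (chr12:113418558-113422730, minus strand), was the heavy-chain gene with the most counts. It had 1016, 210, 148 and 185 counts in PBS, 48, 57, 298, 62 and 136 in CTX100, and 2365, 220, 131, 22 and 261 in CTX140. The groups overlapped, and without PBS 1, CTX140 1 and CTX100 3 the counts ran from 22 to 261. Ighm differed by a log2 fold change of -1.83 ± 1.07 (SE) in CTX100 against PBS, 0.57 ± 1.05 in CTX140 against PBS and 2.39 ± 1.05 in CTX140 against CTX100 (edgeR adjusted p = 0.403, 0.732 and 0.202). Without PBS 1 and CTX140 1 the last value was 0.44 ± 0.57 (edgeR adjusted p = 0.734), and CTX140 against PBS gave -0.34 ± 0.65. With CTX100 3 also left out these were 0.98 ± 0.52 (edgeR adjusted p = 0.421) and -0.33 ± 0.54. CTX100 against PBS was then -1.31 ± 0.55 (edgeR adjusted p = 0.256).

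Ighd, the IgD constant gene carried by mature naive B cells (chr12:113406604-113416324, minus strand), was nearly limited to the 3 libraries that stood apart. It had 294, 3, 10 and 12 counts in PBS, 1, 0, 134, 3 and 0 in CTX100, and 549, 1, 2, 0 and 0 in CTX140. A count of 0 allows up to 3 counts, or 0.156 to 0.208 CPM at these depths. Ighd made up 10.7% of heavy constant counts in PBS 1, 28.1% in CTX100 3 and 15.1% in CTX140 1, and 0 to 5.24% elsewhere. It had log2 fold changes of -1.74 ± 2.03, 0.45 ± 1.96 and 2.19 ± 1.96 (SE) in the 3 comparisons, in the order given above, so that each error was as large as the change or nearly so. Without PBS 1 and CTX140 1 they were 1.44, -3.33 and -4.77, all with the sign turned (edgeR adjusted p = 0.643, 0.307 and 0.226). That fit kept CTX100 3, and with CTX100 3 also left out Ighd did not pass the low-count filter.

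IgG transcripts were mostly a feature of PBS 1. Ighg1 (chr12:113325240-113330523, minus strand) had 766, 5, 12 and 9 counts in PBS, 0, 1, 17, 0 and 1 in CTX100, and 80, 3, 4, 0 and 3 in CTX140. PBS 1 had far more Ighg1 than CTX140 1 although its summed Ig counts were lower. The 4 IgG genes made up 36.1% of heavy constant counts in PBS 1 and 0 to 8.38% in the other 13 libraries. Ighg2b had 136 counts in PBS 1 and 62 in CTX140 1, Ighg3 had 69 and 63, and Ighg2c had 19 and 14. These 3 had at most 9, 4 and 5 counts in the other 12 libraries. Ighg1 had the lowest unadjusted p of CTX100 against PBS among the 6 members that passed the filter, at a log2 fold change of -5.76 ± 1.77 (SE, edgeR adjusted p = 0.112). It was -3.46 ± 1.51 in CTX140 against PBS (edgeR adjusted p = 0.116). Without PBS 1 the log2 fold change of Ighg1 in CTX140 against PBS was 0.93, and without CTX140 1 Ighg1 did not pass the low-count filter. Ighe, the IgE gene, had 39 counts in PBS 1, 8 in CTX140 1 and at most 3 elsewhere.

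Mouse strains differ in their IgG2 genes, and the annotation has Ighg2c but no Ighg2a, which many laboratory strains carry instead. The strain is not given in the labels used here, and its effect on the Ighg2c and V counts was not tested.

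Igha, the IgA constant gene (chr12:113254830-113260236, minus strand), followed another order of libraries. It had 402, 43, 15 and 24 counts in PBS, 54, 19, 14, 5 and 33 in CTX100, and 488, 328, 248, 6 and 91 in CTX140. CTX140 2 and CTX140 3 came nearest to PBS 1 and CTX140 1 here, while CTX100 3, high in Ighm and Ighd, was low. Igha made up 58.5% of heavy constant counts in CTX140 2 (95% Wilson interval 54.3 to 62.5) and 63.1% in CTX140 3 (58.2 to 67.7), but 13.4% in CTX140 1. The share was 51.9% in CTX100 1 (42.4 to 61.3, from 104 counts) and 14.7%, 15.9%, 7.85% and 10.3% in PBS 1 to 4. Other libraries had 2.94% to 24.6%. Mean Igha shares were 12.2 ± 3.75% in PBS (SD, n = 4), 20.8 ± 19.3% in CTX100 (SD, n = 5) and 36.2 ± 22.9% in CTX140 (SD, n = 5). The ranges of PBS (7.85% to 15.9%) and of CTX140 (13.4% to 63.1%) overlapped, by CTX140 1 alone. The share of CTX140 4, 21.4%, came from only 28 counts, and its Wilson interval (10.2 to 39.5) reaches into the PBS range.

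Among the 6 members that passed the filter, Igha came closest to a call in CTX140 against CTX100, with a log2 fold change of 3.21 ± 1.04 (SE, edgeR adjusted p = 0.101). DESeq2 called it there (3.22, adjusted p = 0.0267). Without PBS 1 and CTX140 1 it was 2.74 ± 0.82 (edgeR adjusted p = 0.137) and, against PBS, 2.50 ± 0.98 (edgeR adjusted p = 0.0931). With all libraries the change against PBS was 0.90 ± 0.99 (edgeR adjusted p = 0.544). It was -2.31 ± 1.06 in CTX100 against PBS (edgeR adjusted p = 0.269), and -0.24 ± 0.94 without those 2 libraries.

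Jchain, which is not an Ig segment but joins IgA and IgM units, had 647, 28, 17 and 21 counts in PBS, 12, 19, 15, 2 and 12 in CTX100, and 819, 151, 147, 6 and 70 in CTX140. CTX140 2, 3 and 5 thus held more Jchain than any library but PBS 1 and CTX140 1. In CTX140 2 and 3, Ms4a1 had 3 and 1 counts, and Ighd had 1 and 2. CTX100 3 was the reverse, with 73 Ms4a1 and 134 Ighd counts beside 14 Igha and 15 Jchain counts. These patterns were noticed after the values were seen and were not tested.

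**Figure D2:**
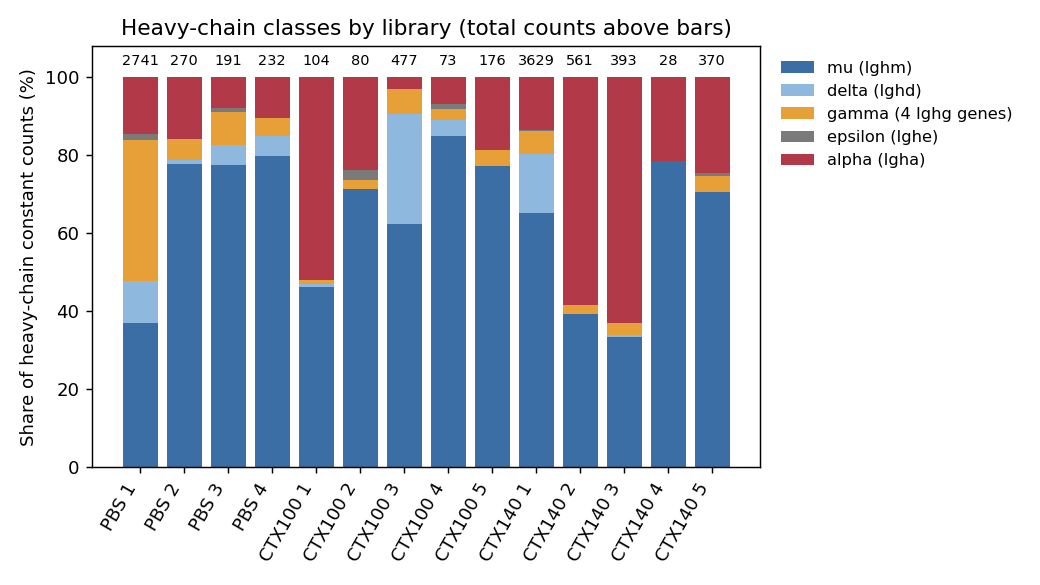
Share of heavy-chain constant-region counts by class (percent, stacked to 100) in each of the 14 libraries. IgG is largest in PBS 1 (36.1%), IgD in CTX100 3 (28.1%) and IgA in CTX140 3 (63.1%).

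Igkc, the single kappa constant gene (chr6:70726435-70726966, plus strand), had 1605, 51, 31 and 42 counts in PBS, 40, 46, 181, 9 and 34 in CTX100, and 1876, 257, 203, 8 and 221 in CTX140. CTX140 2, 3 and 5 exceeded PBS 2 to 4 by far, while CTX140 4 was the lowest library. Per kilobase of gene length it was the most abundant member, with 8654 counts per kilobase over all libraries against 2735 for Ighm and 663 for Igha. The log2 fold changes of Igkc were -2.92 ± 1.42, 0.22 ± 1.32 and 3.14 ± 1.39 (SE, edgeR adjusted p = 0.305, 0.922 and 0.207). With PBS 1 and CTX140 1 left out they were 0.37, 1.92 and 1.55 (edgeR adjusted p = 0.860, 0.155 and 0.314). With CTX100 3 also left out they were -0.43, 1.93 and 2.36 (edgeR adjusted p = 0.829, 0.0964 and 0.174). A noncoding gene on the same strand, Gm30211, overlaps Igkc and had at most 11 counts in any library.

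The ratio of Igkc to Ighm, each per length, separated the libraries in another way. It was 5.60 in PBS 1 and 0.861, 0.743 and 0.805 in PBS 2 to 4. It was 2.95, 2.86, 2.15, 0.515 and 0.886 in CTX100, and 2.81, 4.14, 5.49, 1.29 and 3.00 in CTX140. PBS 2 to 4 therefore had less Igkc than Ighm per length, and every CTX140 library had more, although the exact 95% counting interval of CTX140 4 (0.496 to 3.01, from 8 and 22 counts) spans 1. In PBS 2 to 4 the upper limits were 1.17, 1.10 and 1.13, so those intervals also span 1. The groups overlapped through PBS 1 and CTX100.

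**Figure D3:**
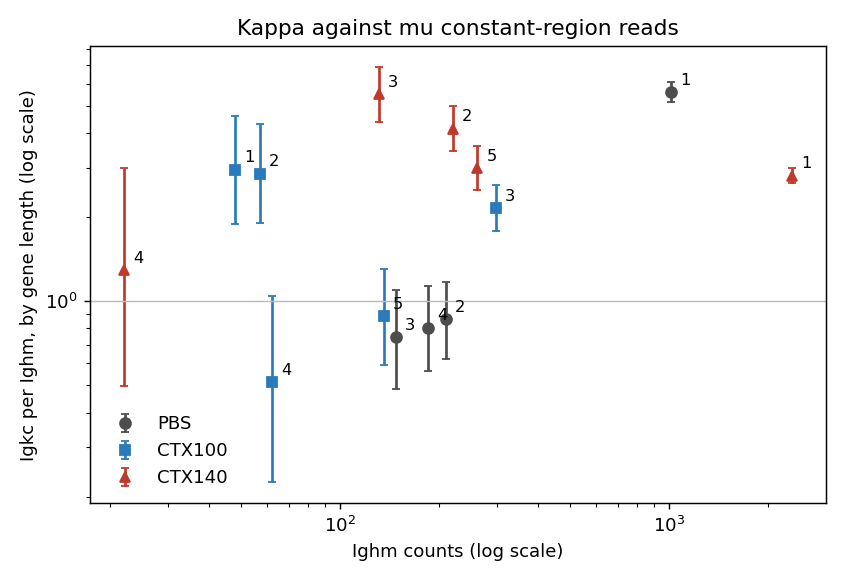
Ratio of Igkc to Ighm counts, each divided by gene length, on a log axis in the 14 libraries by group, with exact 95% counting intervals. PBS 2 to 4 lie at 0.743 to 0.861 and PBS 1 at 5.60, while CTX140 libraries lie at 1.29 to 5.49.

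Lambda light chains were the minority in every library. The lambda constant genes had 248 counts in PBS 1, 434 in CTX140 1 and 56 in CTX100 3, against 1 to 25 in the others. Kappa made up 76.4% to 93.5% of light-chain constant counts in 13 libraries, and 57.6% in CTX100 5 (95% Wilson interval 44.9 to 69.4, from 59 counts). Iglc2 was the highest lambda gene per length (716 counts per kilobase), with 120 counts in PBS 1, 237 in CTX140 1, 34 in CTX100 3 and at most 10 elsewhere. Iglc3 and Iglc1 had 480 and 467 counts per kilobase. Iglc3, the only lambda gene tested, had log2 fold changes of -1.06 ± 1.30, 0.84 ± 1.22 and 1.90 ± 1.21 (SE, edgeR adjusted p = 0.718, 0.656 and 0.379). Iglc4 had no counts. The antisense gene 2010309G21Rik overlaps Iglc1, Iglc3, Iglv1 and Iglj1 and had at most 4 counts in a library, and the strand setting of the counting is not given in the sources used here.

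The 36 V members held 787 counts, 5.04% of all member counts, of which 72.8% lay in PBS 1 and CTX140 1. All 36 were seen in each of these 2 libraries, and the 36 had a count in a median of 4 libraries. V counts were 252, 15, 7 and 5 in PBS, 10, 9, 37, 1 and 3 in CTX100, and 321, 28, 44, 2 and 53 in CTX140. The number of V members seen followed those counts, at 36, 5, 5 and 3 in PBS, 6, 5, 21, 1 and 2 in CTX100, and 36, 11, 15, 2 and 15 in CTX140. A library with 1 to 15 V counts cannot show diversity, whatever it holds.

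At an equal depth of 25 V counts, a depth chosen after the counts were seen and reached by 6 libraries, the expected number of V members was 15.7 in PBS 1, 16.3 in CTX100 3 and 16.4 in CTX140 1. It was 10.7 in CTX140 2, 12.0 in CTX140 3 and 11.2 in CTX140 5. Since 29 of the 36 V members had most of their counts in PBS 1 and CTX140 1, the 10-count rule favours those libraries. With V segments of any count, on which no such rule acts, the values were 18.9, 20.6 and 19.6 in PBS 1, CTX100 3 and CTX140 1 and 14.5, 14.7 and 13.3 in CTX140 2, 3 and 5. These are descriptions of 6 libraries, with no test. PBS and CTX100 have 1 library each at this depth, so no group comparison was made.

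Kappa V segments were the bulk, with 31 of the 102 in the table as members, spread over chr6:67609713-70699067 with 16 on the plus and 15 on the minus strand. Igkv1-110 (43 counts, 22 in CTX140 1 and 7 in PBS 1) and Igkv3-2 (40 counts, 22 and 7) led them. Igkv10-96 (33 counts) and Igkv3-12 (33 counts) leaned the other way, with 20 and 18 counts in PBS 1 against 7 and 8 in CTX140 1. Igkv14-126 had 14 of its 38 counts in CTX140 5, 13 in CTX140 1 and 4 in PBS 1. It made up 14 of the 53 V counts of CTX140 5, the most of any segment in that library. Of the 50 members, 44 had their highest count in PBS 1 or CTX140 1, 1 of them (Igkv14-111) tied with CTX100 3. The other 6 were all V segments, Igkv14-126 among them.

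All 3 lambda V segments of the table were members. Iglv1 had 40 counts in PBS 1, 38 in CTX140 1 and at most 4 in any other library. Iglv3 had 16 and 11 and at most 4 elsewhere. Iglv2, nearly identical to Iglv1 as printed above, had 2 counts in PBS 1 and 17 in CTX140 1. The V segments of the heavy chain were the least seen, with 2 of 113 as members. Ighv14-2 had its highest count, 7, in PBS 2, and it had 6 in CTX140 2, 5 in CTX100 1 and at most 3 elsewhere. Ighv11-2 had 4 counts each in PBS 1 and CTX140 1 and at most 1 in the others. The J members Iglj1 and Ighj1 had 12 and 10 counts in all.

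**Figure D4:**
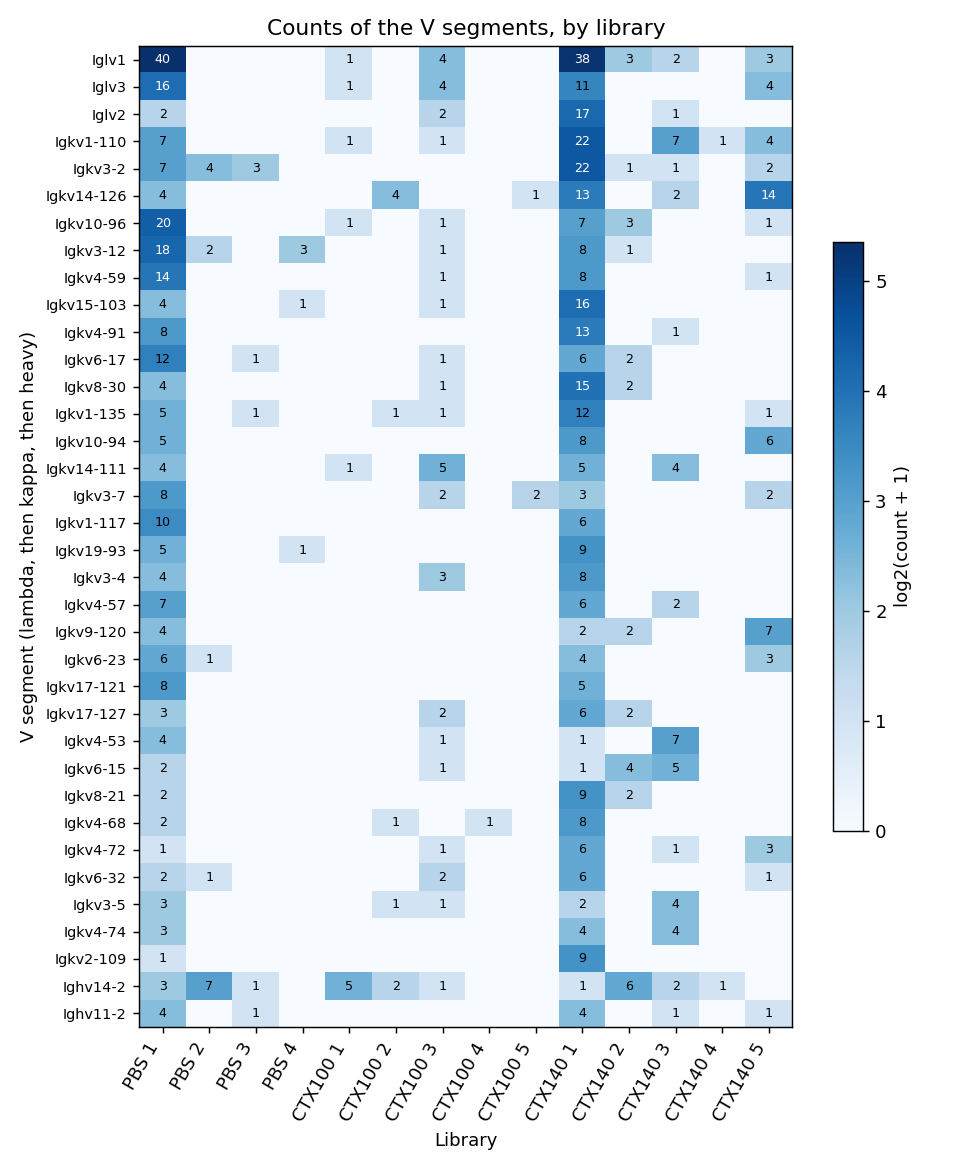
Counts of the 36 V members (rows) in the 14 libraries (columns), coloured on a log scale, with white for no counts. PBS 1 and CTX140 1 hold counts of all 36, and Igkv14-126 has its highest count, 14, in CTX140 5.

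Genes of B cells and of antibody secretion were called in numbers too small to set apart from the share over all tested genes (1.60%, 21.3% and 1.25%). Of the 16 B cell genes, 10 were tested and none was called in any of the 3 comparisons, and none had an unadjusted p under 0.05 (edgeR). The tested B cell genes had median log2 fold changes of -0.90, 0.55 and 1.23 in the order given above. In the fit without PBS 1 and CTX140 1, 9 were tested and 1 was called, Spib, an ETS factor of B cells and plasmacytoid dendritic cells, which rose by 2.53 in CTX100 and by 2.57 in CTX140 against PBS (log2, edgeR adjusted p = 0.0284 and 0.00736). When CTX100 3 was also left out, the CTX100 value was 2.30 and not called (edgeR adjusted p = 0.0617), and the CTX140 value was 2.58 (edgeR adjusted p = 0.00794). Spib had 167 counts in PBS 1, 4, 4 and 2 in PBS 2 to 4, and 334 in CTX140 1. PBS 1 and CTX140 1 were left out after the values were seen, and leaving out PBS 1 lowers the PBS side. Of 13 plasma cell genes, 10 were tested. Fkbp11, a folding enzyme of the secretory pathway, rose in CTX140 against PBS by 0.72 on the log2 scale (edgeR adjusted p = 0.00644), and no other was called. The abundant plasma cell genes Txndc5, Sdc1 and Xbp1 are also made by many other secretory and epithelial cells, and had 2375 to 4150, 2407 to 4055 and 1266 to 2732 counts. Mzb1, a chaperone of antibody assembly, had 95 counts in PBS 1, 121 in CTX140 1, 32 in CTX100 3 and 1 to 8 elsewhere. Of 7 germinal centre and switching genes, 4 were tested. Bcl6, a transcriptional repressor on which the germinal centre programme depends, fell by 0.53 on the log2 scale in CTX140 against PBS (edgeR adjusted p = 0.0397). B cell precursor genes summed to at most 2.59 CPM in any library.

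Some lymphoid tissue, T cell and stromal genes were called in CTX140 against PBS. Of 6 lymphoid tissue genes tested, Ltb, Lta and Madcam1 rose, by 1.69, 2.47 and 2.15 (log2). Ltb and Lta encode lymphotoxins and Madcam1 a vascular adhesion molecule. Of 8 T cell genes tested, Cd8a, Cd3g and Cd8b1 rose, by 1.63, 1.82 and 2.00. Of 16 B cell cytokine and receptor genes, 12 were tested and 3 rose in that comparison, Il33, Il6 and Tnfsf13b, by 1.38, 1.70 and 0.99, the last being the B cell survival factor BAFF. Of 8 Fc and Ig receptor genes tested, Fcgr3 and Fcer1a rose, by 0.74 and 2.64, and of 10 B cell receptor signalling genes tested, Syk rose by 1.08. No gene of these 5 lists was called in the other 2 comparisons. Cxcl13, the chemokine that attracts B cells into follicles, had 138, 8, 5 and 2 counts in PBS, 13, 27, 58, 66 and 28 in CTX100, and 740, 180, 125, 36 and 98 in CTX140. PBS 2 to 4 lay below every other library. It was not called with all libraries. Without PBS 1 and CTX140 1 it was, with rises of 2.77 in CTX100 and 4.30 in CTX140 against PBS (log2, edgeR adjusted p = 0.0431 and 0.00139). When CTX100 3 was also left out, the CTX100 value was 2.66 and not called (edgeR adjusted p = 0.0836), and the CTX140 value was 4.31 (edgeR adjusted p = 0.00221). PBS 1 and CTX140 1 were left out after the values were seen, and leaving out PBS 1 lowers the PBS side of Cxcl13 too. In the fit without PBS 1 and CTX140 1 Ltb, Lta, Madcam1, Cd3g and Cd8b1 also rose in CTX140 against PBS, by 1.12 to 2.34, whereas Cd8a and Fcer1a were not called (edgeR adjusted p = 0.0774 and 0.0794). Of 8 T cell genes tested in that fit, 3 were called higher in CTX140 against PBS, where 19.2% of all tested genes were called. With all libraries, 5 of 5 adipocyte, 5 of 6 fibroblast and 2 of 3 skin genes tested also rose in CTX140 against PBS. The share of called genes overall was 21.3% there. Fibroblast genes summed to 599 to 977 CPM in PBS and 1843 to 5140 in CTX140, and the part of such tissue in the Ig values was not tested.

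**Figure D5:**
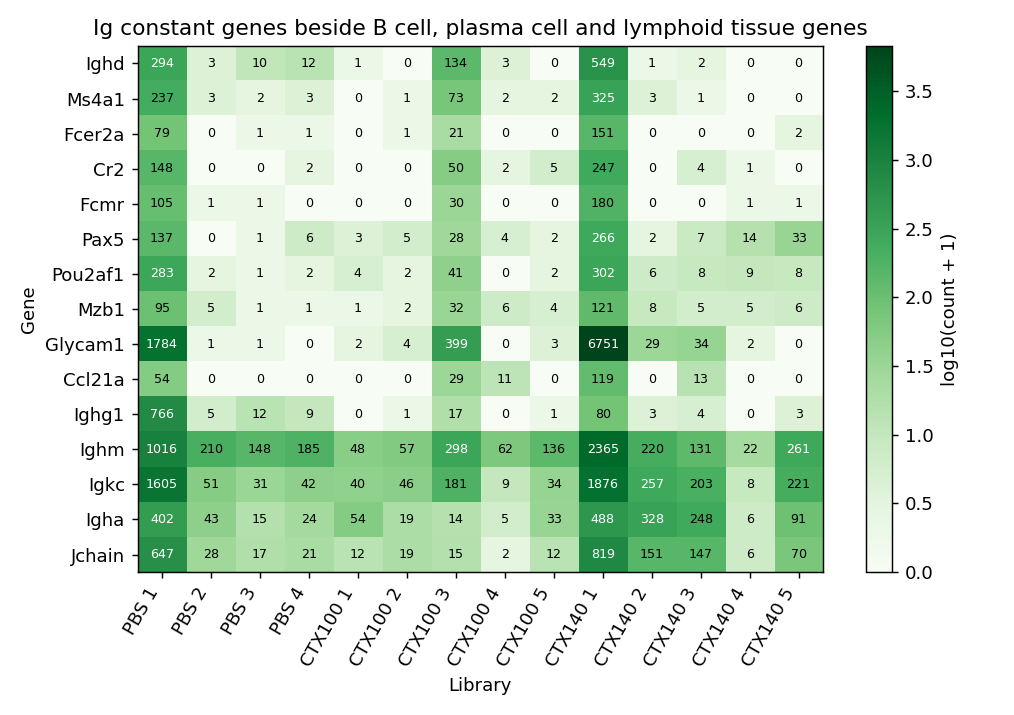
Read counts of Ig constant genes beside B cell, plasma cell and lymphoid tissue genes (rows, chosen after their values were seen) in the 14 libraries (columns), coloured by log10(count + 1). PBS 1, CTX140 1 and CTX100 3 carry Ms4a1 and Glycam1, while CTX140 2 and CTX140 3 carry Igha and Jchain with 3 and 1 Ms4a1 counts.

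Outside the Ig genes, the protein-coding genes with the pattern most like the summed members were Jchain, Bcor, Bank1, Lrmp, Cd7, Ikzf1, Cd79b, Vav2, Tspan32 and Hdac9. Likeness was Pearson's r of log2 CPM over the 14 libraries, all of which share their totals with the Ig sums. In the order named it was 0.92, 0.91, 0.90, 0.89, 0.88, 0.87, 0.85, 0.85, 0.85 and 0.85. Bank1 is a B cell adaptor and Cd79b a signalling chain of the B cell receptor. Without PBS 1 and CTX140 1 the values were 0.80, 0.78, 0.75, 0.77, 0.76, 0.69, 0.54, 0.59, 0.69 and 0.72 over 12 libraries.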

How the data were processed

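RNA from 14 tumour libraries was analysed from the deposited table of read counts per gene, whole numbers that the authors did not normalise, on build mm10 per the submitters' processing notes, which also name DESeq2. The deposited FPKM table was used only for 1 alternative. The aligner, the counter, the strand setting and the treatment of reads that fit several copies are in none of the sources used here. Groups came from the labels, no column of per-sample values was left out, and no pair of libraries was identical.

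Members were summed as counts and given as CPM, counts per 1000000 counts of the library (totals 14423875 to 19282726), with Wilson 95% intervals. CPM of single genes and gene lists, and those in the correlations, used totals of the tested genes multiplied by TMM factors. All 14 libraries were fitted together over 15360 genes that passed filterByExpr, with edgeR 4.0.16 (R 4.3.3, TMM factors, robust quasi-likelihood test, Benjamini-Hochberg adjustment, threshold 0.05), checked on simulated data. Class shares used heavy constant counts. The Igkc to Ighm ratio used gene lengths with exact intervals. V segment numbers were rarefied to 25 counts, since the shallowest library had 1. Alternatives were RLE factors, no filter, a mean of at least 1 CPM, DESeq2 1.42.0, 2 groups only, a replicate block, Ig counts left out of the library size, and each library left out. Identities came from pairwise alignment of GENCODE M21 coding sequences. All 50 members matched that annotation.

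The members and gene lists were chosen with earlier results of these data known. The rule for names was all constant genes, V members by mean level (5 heavy where present, 5 kappa, all lambda), the 2 highest J members, up to 3 abundant and 4 called genes per list, and the 10 genes most like the Ig sum. Not every gene the rule allows is printed.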

Additional observations from a re-analysis of the deposited data

Results flagged for a closer look

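Of 39 groups of 4 or 5 libraries tested for a library far from the others (Dixon's ratio), 22 held one, and all 22 were PBS 1, CTX100 3 or CTX140 1. Chance flags about 1 in 20 independent groups, but these values share counts and come from members chosen by their summed counts in the same libraries. The number is therefore a description and is not read against that rate. No explanation of them was tested.

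For the summed Ig members these were PBS 1 at 306, CTX100 3 at 39.0 and CTX140 1 at 379 CPM. Ighm, in TMM-scaled CPM as the other single genes here, was apart in PBS 1 (61.2) and CTX140 1 (142). Igkc was apart in PBS 1 (96.7), CTX100 3 (9.07) and CTX140 1 (112). Ighd was apart in PBS 1 (17.7), CTX100 3 (6.71) and CTX140 1 (32.9). Ighg1 was apart in PBS 1 (46.2), CTX100 3 (0.852) and CTX140 1 (4.79), and Iglc3 in PBS 1 (2.89) and CTX140 1 (6.47). Igha was apart in PBS 1 alone (24.2 CPM). In CTX140, where CTX140 2 and CTX140 3 were also high, no library met the criterion for Igha.

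Among class shares, Ighm in PBS 1 was low at 37.1% of heavy constant counts and the IgG genes there were high at 36.1%. Ighd was high in CTX100 3 (28.1%) and CTX140 1 (15.1%). The ratio of Igkc to Ighm per length was high in PBS 1, at 5.60.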

How the results depend on the processing

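No member was called in CTX100 against PBS or CTX140 against PBS under any alternative run. In CTX140 against CTX100, where the count was 0, DESeq2 called 1 member and the replicate block 1, in each case Igha (3.22, adjusted p = 0.0267, and 3.09 ± 0.68, adjusted p = 0.0466). Of all tested genes, DESeq2 called 8.14% in that comparison. The share of all genes called with the replicate block is not given here, so its call of Igha is not read against one. DESeq2 gave no adjusted p for Ighd and Ighg1 there. Leaving out 1 library at a time called 0 in every comparison. The summed Ig share as a share of summed FPKM was 239 in 1000000 in PBS and 36.8 in CTX100 (90.1 and 15.5 by counts). Leaving out 1 library moved its mean between 18.2 and 115 in PBS, 9.61 and 18.0 in CTX100, and 31.9 and 126 in CTX140, the lowest of each being without PBS 1, CTX100 3 and CTX140 1. The Ighm share in PBS was 45.4% from summed counts against 68.0% as a mean over libraries. With V segments of any count the mean number at equal depth in CTX140 was 15.5 against 12.6. The cause of these differences was not tested.

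The replicate numbers were not shown to pair the libraries: correlations of same-numbered libraries ran from -0.19 to 0.43, and 4 of 14 libraries were most like one with their own number. With the replicate block, the log2 fold change turned for Ighd (0.20) and Iglc3 (0.28) in CTX100 against PBS, for Ighm (-0.11) and Ighd (-0.20) in CTX140 against PBS, and for Ighd (-0.40) in CTX140 against CTX100.

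Without PBS 1 and CTX140 1, chosen after the data were seen, the sign turned for Igkc (0.37) and Ighd (1.44) in CTX100 against PBS, for Ighm (-0.34) and Ighd (-3.33) in CTX140 against PBS, and for Ighd (-4.77) in CTX140 against CTX100. The same without the low-count filter gave 0.37 for Igkc, 1.43 for Ighd and 1.36 for Iglc3 in CTX100 against PBS, -0.36 for Ighm and -3.35 for Ighd in CTX140 against PBS, and -4.78 for Ighd, -0.47 for Ighg1 and -0.50 for Iglc3 in CTX140 against CTX100, all with the sign turned. With CTX100 3 also left out (filter kept) it turned for Ighm (-0.33) in CTX140 against PBS. Leaving out 1 library at a time, values in CTX100 against PBS ran from -3.75 to 0.38 for Igkc, -6.14 to 1.44 for Ighd and -1.47 to 1.37 for Iglc3. In CTX140 against PBS they ran from -3.90 to 0.93 for Ighg1, -1.38 to 3.51 for Igkc, -1.38 to 1.60 for Ighm and -6.52 to 3.62 for Ighd, and in CTX140 against CTX100 from -4.78 to 6.57 for Ighd. V numbers per length or for heavy V alone could not be given, since too few V counts remained. The low counts of most members limit every class share outside PBS 1 and CTX140 1.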
